A study of Homo sapiens with 6 samples.

Results

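The enteroendocrine hormones and granule proteins examined here were 10 genes, the peptide hormone genes GCG, SST, PYY, INSL5, NTS, CCK and GIP and the secretory granule genes CHGA, CHGB and SCG2. All probe sets that the array annotation gives to one of these symbols were taken, which gave 10 of the 19775 genes measured and 11 of the 54613 probe sets tested, 2 of them for PYY. Whole-genome HGU133 Plus2.0 arrays recorded the transcripts of HT-29 cells, a human colon adenocarcinoma cell line, after treatment with 10 µM 5-aza-2′-deoxycytidine (5-Aza), an inhibitor of DNA methyltransferases, for 72 hours (3 arrays) and in control HT-29 cells that received only the solvent, water mixed with acetate (3 arrays). The treatment was done in medium without serum. Whether each array had a culture of its own is not given in the sources used here, and the p-values then measure only the spread between these arrays, which may be technical.

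Enteroendocrine cells are scattered hormone-producing cells of the gut epithelium, each of which makes a small set of peptide hormones. The hormones are cut from larger precursors and stored in dense-core granules, whose packing proteins are the chromogranins and secretogranins, until nutrients or other signals release them. In the colon, L cells make products of GCG, PYY and INSL5 and D cells make somatostatin (SST), while CCK, GIP and NTS are best known as hormones of the small intestine.

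The level of a bacterial transcript (TrpnX), which human RNA does not contain, was used as a measure of background on each array. Its highest signal was between 22.6 and 31.8 on the 5-Aza arrays and between 23.8 and 42.0 on the control arrays. Most of the hormone and granule probe sets gave signals near or under this level. Of the 11 probe sets, 4 (GCG, SST, CHGA and SCG2) lay above the TrpnX signal of the same array on all 5-Aza arrays and 1 (CHGA) on all control arrays, and 3 (NTS and both of PYY) were at or under it on all 6 arrays. CHGA passed it narrowly on control replicate 3 (42.4 against 42.0). The share of all probe sets above this level was not counted, so these counts are not a comparison of the groups. The median signal of all probe sets was between 83.3 and 86.1 on the 5-Aza arrays and between 71.8 and 76.9 on the control arrays. RNA quality was read from the 3′ minus the 5′ probe set of ACTB, which was 0.73 ± 0.086 after 5-Aza and 0.54 ± 0.077 in control cells on the log2 scale (SD, n = 3 each), without overlap of the groups. The same measure of GAPDH was 0.18 ± 0.048 after 5-Aza and 0.13 ± 0.029 in control cells, with overlapping groups. The part of these array-wide differences in the values of the hormones was not tested. The markers of colon epithelium were strong, with 8 of 9 above the TrpnX level on all arrays of both groups and CDX1 at or under it on all, and EPCAM had signals from 22384 to 27198 on the 5-Aza arrays and from 19976 to 25742 on the control arrays.

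**Figure D1:**
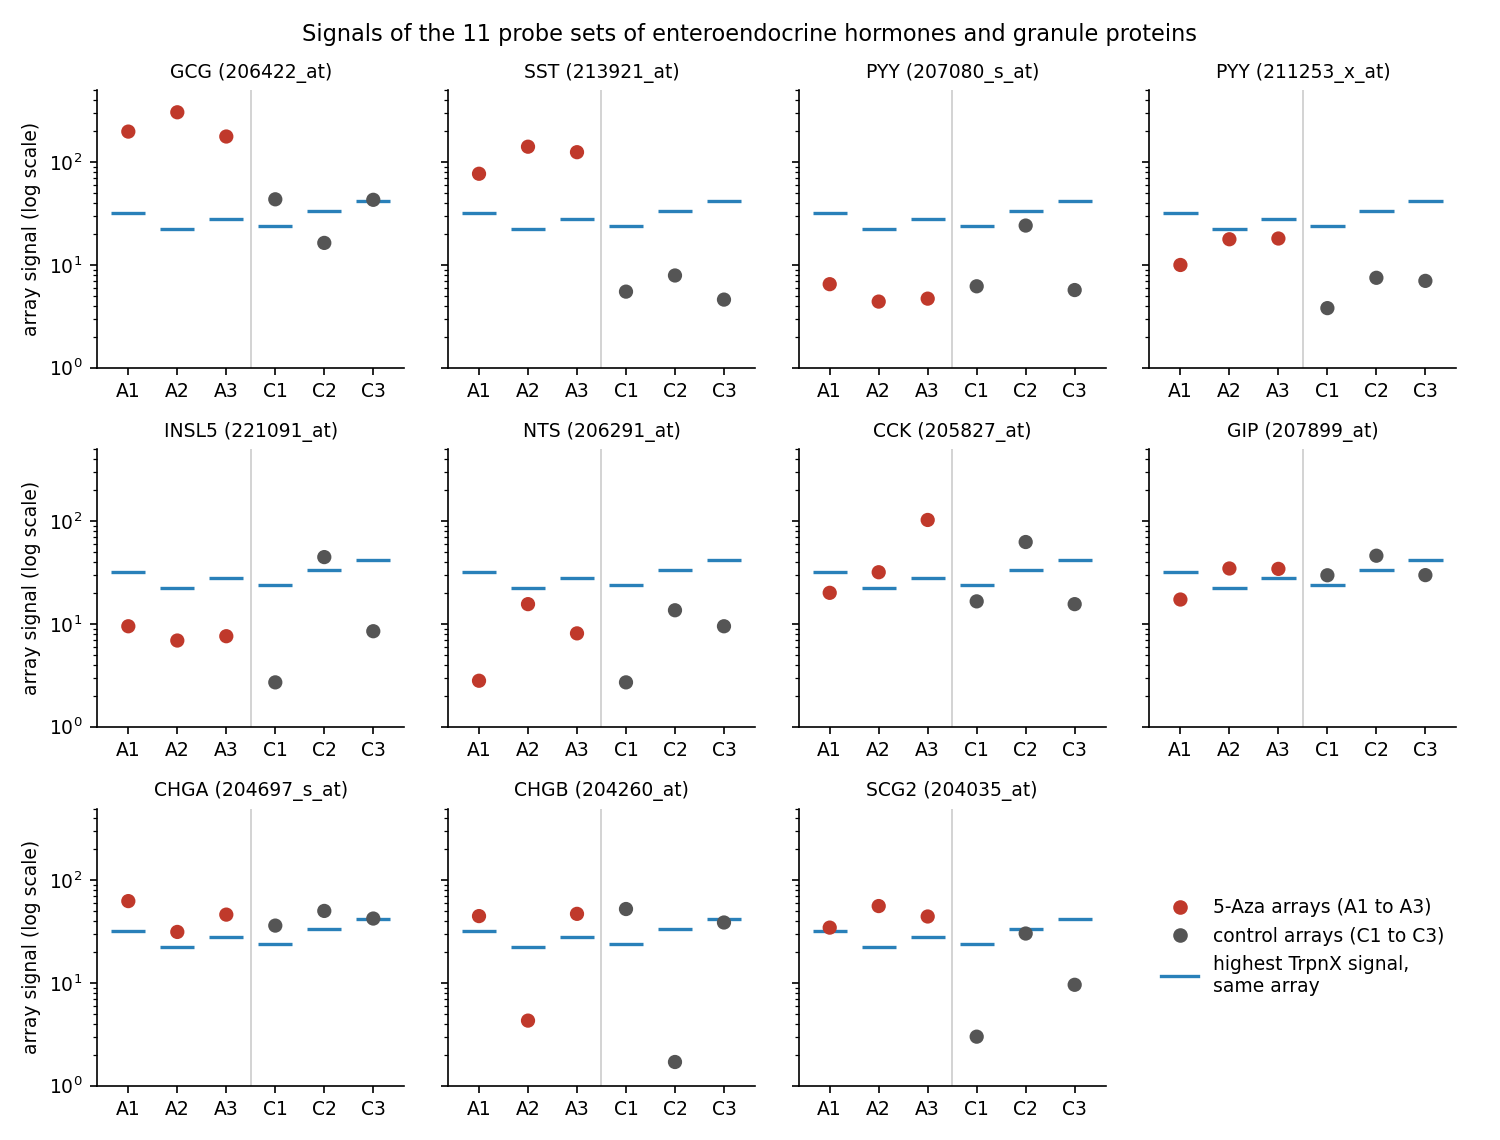
Signal (log scale) of the 11 probe sets on each array, with the 5-Aza arrays (red, A1 to A3) left of the control arrays (grey, C1 to C3). Blue lines give the highest TrpnX signal of the same array. SST and GCG lay far above it on the 5-Aza arrays, with signals from 77.3 to 306.8, while most other points were near or under it.

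After 5-Aza treatment SST and GCG gave clearly higher signals, SCG2 and one of the PYY probe sets gave weaker signals that were also separated from the controls, and the groups overlapped for the other 7 probe sets. The methods for this experiment ranked probe sets by log2 fold change and took the top ones at p under 0.025, without saying whether this p was adjusted. That level was applied here to limma's unadjusted p, without the condition on rank. By limma 3 of the 11 probe sets (SST, GCG and PYY 211253_x_at) passed it with higher signals and 0 with lower ones, where 2.97% of all probe sets were called higher and 1.05% lower. In 4 of the 11 every 5-Aza array lay above every control array, which 9.29% of all probe sets showed, and in 0 every 5-Aza array lay below (5.22% of all). After adjustment over all 54613 probe sets limma called 0 of the 11, and 0 of the rest, at a threshold of 0.05. The unadjusted p lay under 0.05 for 4 of the 11, all higher (5.26% of all were higher and 1.97% lower at that level). The log2 fold change was above 0 in 8 of the 11, and in 56.9% of all probe sets, with a median of 0.34 against 0.062. The members were chosen with earlier results of these data known, so these shares do not measure an enrichment of the hormones.

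SST encodes somatostatin, which inhibits the release of many other hormones. Its probe set (213921_at) gave 77.3, 141.8 and 125.4 on the 5-Aza arrays and 5.5, 7.9 and 4.6 on the control arrays. All 5-Aza values were above the TrpnX signal of their array and all control values were far under it. The mean signal was 115 ± 33.5 in 5-Aza-treated cells and 6.0 ± 1.71 in control cells (SD, n = 3 each). The log2 fold change, on the scale of log2(signal + 1), was 4.03 (SE 0.31, 95% interval 3.25 to 4.82), with an unadjusted p of 2.99e-05 and an adjusted p of 0.0933 in limma. Its log2 fold change took place 6 among the 54613 probe sets. Since the control signals were not told apart from background, the size of the change has only a lower bound. Set against the TrpnX level of each control array, the signal was at least 3.37-fold higher in 5-Aza-treated cells. The lower bound follows the background level chosen, and when 16 was used as the pseudocount instead of 1, the log2 fold change became 2.54, with place 11 among all probe sets.

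GCG encodes the precursor of glucagon and of the glucagon-like peptides, which L cells release after a meal. Its probe set (206422_at) gave 199.0, 306.8 and 178.2 on the 5-Aza arrays and 43.6, 16.4 and 43.1 on the control arrays. Control cells thus had a signal above the TrpnX level on 2 of 3 arrays, narrowly on control replicate 3 (43.1 against 42.0). The lowest 5-Aza value was several times the highest control value. The mean signal was 228 ± 69.0 in 5-Aza-treated cells and 34.4 ± 15.6 in control cells (SD, n = 3 each). The log2 fold change was 2.78 (SE 0.46, 95% interval 1.63 to 3.93, unadjusted p = 0.00136 and adjusted p = 0.307 in limma), and it was 2.29 with 16 added. Place 93 of its log2 fold change among all probe sets became place 18 with 16 added. The signals of the probe sets with larger values were not examined. The study picked GCG from these same arrays, and its text names SST and CHGA among the genes so picked (its list, as read here, holds GCG and not these). The directions of these genes on the arrays are therefore not independent evidence. The study also measured GCG by real-time PCR in the same cell line. It reports increased expression after 5-Aza at the same dose, relative to solvent controls. Whether that RNA came from cultures other than those of the arrays is not given in the sources used here. SST and CHGA were not among the genes it tested by PCR. For SST and GCG alike, 5-Aza replicate 2 had the highest signal of the treated arrays.

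The 5-Aza treatment acts on DNA methylation, which in human cells lies mostly at CG dinucleotides. The 250 bases before the annotated transcription start were therefore taken from RefSeq promoters (GRCh38.p14) for the genes of the members that had an entry, which were 8 of 10 genes with 10 starts. They are printed 5′ to 3′ on the strand of the gene and with each CG in capitals, for SST and GCG, the members with the highest signals after 5-Aza, and for CHGA, whose groups overlapped. SST lies at chr3:187670395-187670644 (minus strand), GCG at chr2:162152248-162152497 (minus strand) and CHGA at chr14:92922900-92923149 (plus strand).
SST: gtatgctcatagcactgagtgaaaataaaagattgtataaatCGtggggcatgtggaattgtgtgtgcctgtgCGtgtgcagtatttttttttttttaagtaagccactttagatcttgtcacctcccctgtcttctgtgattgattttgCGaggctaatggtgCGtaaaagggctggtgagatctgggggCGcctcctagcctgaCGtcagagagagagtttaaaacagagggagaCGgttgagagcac
GCG: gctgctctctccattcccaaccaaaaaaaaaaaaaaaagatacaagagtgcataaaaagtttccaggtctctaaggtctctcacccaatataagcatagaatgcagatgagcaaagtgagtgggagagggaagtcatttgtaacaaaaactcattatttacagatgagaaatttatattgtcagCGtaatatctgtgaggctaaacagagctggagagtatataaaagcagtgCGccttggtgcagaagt
CHGA: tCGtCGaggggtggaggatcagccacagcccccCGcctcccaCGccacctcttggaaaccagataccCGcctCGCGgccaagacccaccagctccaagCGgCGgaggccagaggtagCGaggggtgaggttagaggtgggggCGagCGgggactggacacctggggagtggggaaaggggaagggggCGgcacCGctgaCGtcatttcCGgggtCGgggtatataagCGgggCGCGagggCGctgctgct

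These stretches held 7 CG dinucleotides for SST, 2 for GCG and 21 for CHGA, while the median over the 35116 annotated starts was 11. Fewer CG dinucleotides than in SST were found at 41.1% of all starts, and fewer than in GCG at 14.7%. The other starts of members held 0 (GIP) to 14 (one start of PYY). The letters TGACG, the core of the cAMP response element, were found on both strands, overlapping each other, with first bases 47 and 44 bases before the start of SST and 54 and 51 bases before that of CHGA, and on either strand at 21.2% of all starts. The core letters of a TATA box (TATAAA) lay 79 and 30 bases before the start of the GCG gene (the farther one on the other strand) and 215 bases before that of SST, and 10.7% of all starts held these letters on either strand. Methylation was not measured on these arrays.

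SCG2 encodes secretogranin II, a granule protein that is also cut into smaller peptides. It gave 34.6, 56.1 and 44.4 on the 5-Aza arrays and 3.0, 30.3 and 9.6 on the control arrays. The groups did not overlap, but the lowest 5-Aza value (34.6) was close to the highest control value (30.3), which came from control replicate 2. All 5-Aza values lay above the TrpnX signal of their array and all control values under it, so that the signal was at least 1.36-fold higher after 5-Aza. The log2 fold change was 2.04 (SE 0.77, 95% interval 0.10 to 3.98), with an unadjusted p of 0.0423 and an adjusted p of 0.672 in limma. Without control replicate 2 it was 2.80 (unadjusted p = 0.00438 in limma), past the threshold of 0.025, and without control replicate 1 it was 1.31. It also passed with 16 added, at a log2 fold change of 1.10 (unadjusted p = 0.0195 in limma).

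CHGA and CHGB encode chromogranins A and B, the general markers of neuroendocrine granules. CHGA (204697_s_at) was the only member above the TrpnX level on all 6 arrays. It gave 62.7, 31.4 and 46.3 after 5-Aza and 36.2, 50.3 and 42.4 in control cells, and its log2 fold change was 0.079 (95% interval -0.67 to 0.83). The 5-Aza values spanned the control values. CHGB gave 44.8, 4.3 and 47.1 after 5-Aza and 52.5, 1.7 and 38.8 in control cells, so that one array of each group, replicate 2 in both, had a value many times lower than the others. Its log2 fold change of 0.34 had a 95% interval from -3.42 to 4.10, and neither an increase nor a decrease of that size can be told from no change.

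**Figure D2:**
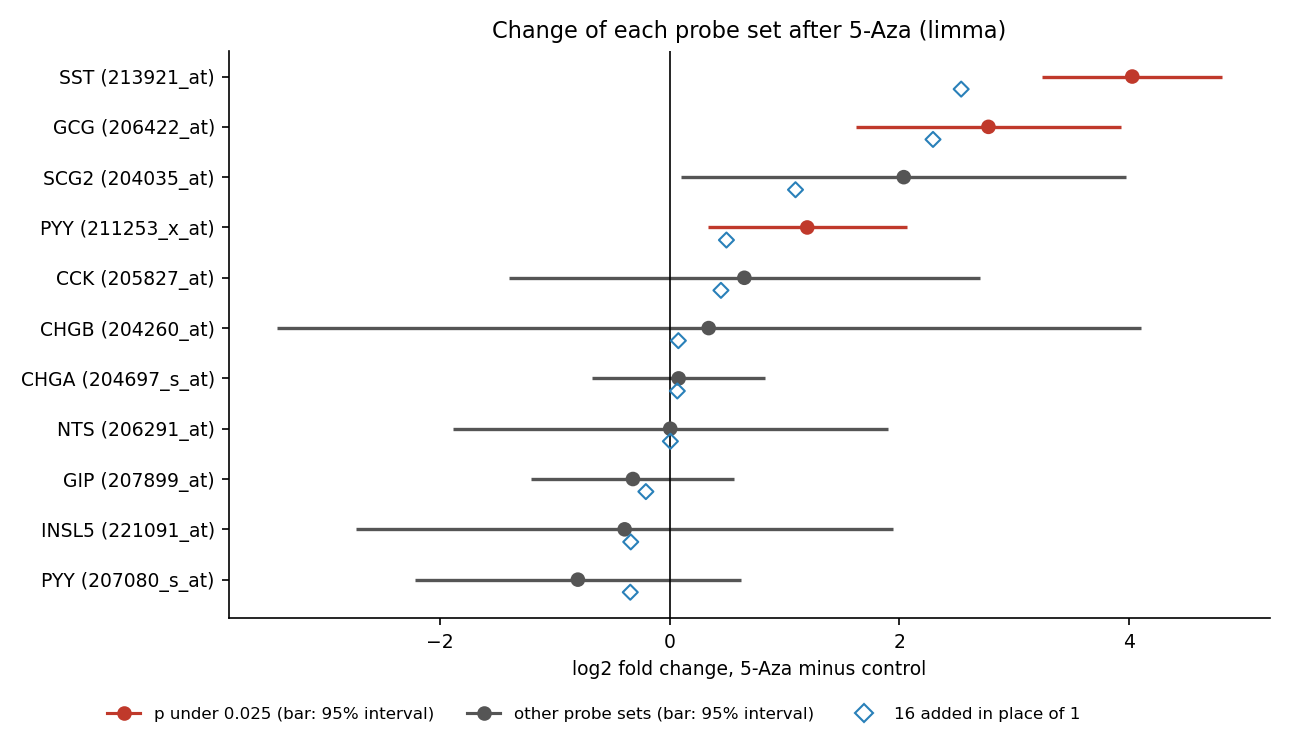
Log2 fold change (5-Aza minus control, log2 of signal + 1) of each probe set with its 95% interval from limma, n = 3 arrays per group. Red marks an unadjusted p under 0.025, and open diamonds give the value with 16 added. The intervals of SST, GCG, SCG2 and PYY 211253_x_at lie above 0, and the other 7 include 0.

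PYY encodes peptide YY, a hormone of L cells that reduces appetite, and its probe sets pointed in opposite directions. The probe set 211253_x_at gave 10, 17.8 and 18.1 after 5-Aza and 3.8, 7.5 and 7.0 in control cells, with a log2 fold change of 1.20 (95% interval 0.33 to 2.06, unadjusted p = 0.0156 and adjusted p = 0.579 in limma). The groups did not overlap, yet all 6 values were under the TrpnX level of their array, so that this value is a difference between signals not told apart from background and gives no fold for the transcript. The suffix _x_at marks probes that can also match other transcripts. The probe set 207080_s_at gave 6.5, 4.4 and 4.7 after 5-Aza and 6.2, 24.2 and 5.7 in control cells, with a log2 fold change of -0.80 (95% interval -2.22 to 0.62) and overlapping groups. The call for 211253_x_at was lost with 16 added (log2 fold change 0.50), after quantile normalization (0.97), after median centring (1.01), with trend and robust variance (limma's unadjusted p = 0.140), and without 5-Aza replicate 2 (1.07), 5-Aza replicate 3 (1.06), control replicate 1 (0.94) or control replicate 3 (1.31).

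INSL5, another L cell hormone, gave 9.5, 6.9 and 7.6 after 5-Aza and 2.7, 44.8 and 8.5 in control cells. The single value above the TrpnX level was that of control replicate 2, and without that array the log2 fold change of -0.39 turned to 0.59. NTS, which encodes neurotensin, gave 2.8, 15.6 and 8.1 after 5-Aza and 2.7, 13.6 and 9.5 in control cells, all under the TrpnX level, with a log2 fold change of 0.006 (95% interval -1.89 to 1.90). CCK encodes cholecystokinin, which contracts the gallbladder. It gave 20.1, 31.9 and 103.0 after 5-Aza and 16.6, 62.8 and 15.6 in control cells, with a log2 fold change of 0.65 (95% interval -1.40 to 2.70), and one array of each group stood above the others. GIP, an incretin hormone of the upper gut, gave 17.3, 34.7 and 34.4 after 5-Aza and 29.8, 46.2 and 29.9 in control cells, with a log2 fold change of -0.32 (95% interval -1.20 to 0.57). The smallest unadjusted p in limma among the 7 probe sets with overlapping groups was 0.213. By two-sided exact permutation over the 6 arrays, the 4 probe sets without overlap had p = 0.1 each, the smallest p that 3 arrays against 3 allow.

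Control replicate 2 held the highest of the 3 control signals in 9 of the 11 probe sets, and it was highest in 32.1% of all probe sets. The exceptions were GCG and CHGB, in which it was the lowest. Among the 5-Aza arrays replicate 2 was highest in 5 of the 11, replicates 1 and 3 in 3 each. SST and GCG passed an unadjusted p under 0.025 in limma without any single array, including control replicate 2 (log2 fold changes of 4.22 and 2.33). The count of 3 probe sets called higher was 4 without control replicate 2, when SCG2 was added, and 2 without 5-Aza replicate 2, 5-Aza replicate 3, control replicate 1 or control replicate 3, when the PYY probe set was lost.

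**Figure D3:**
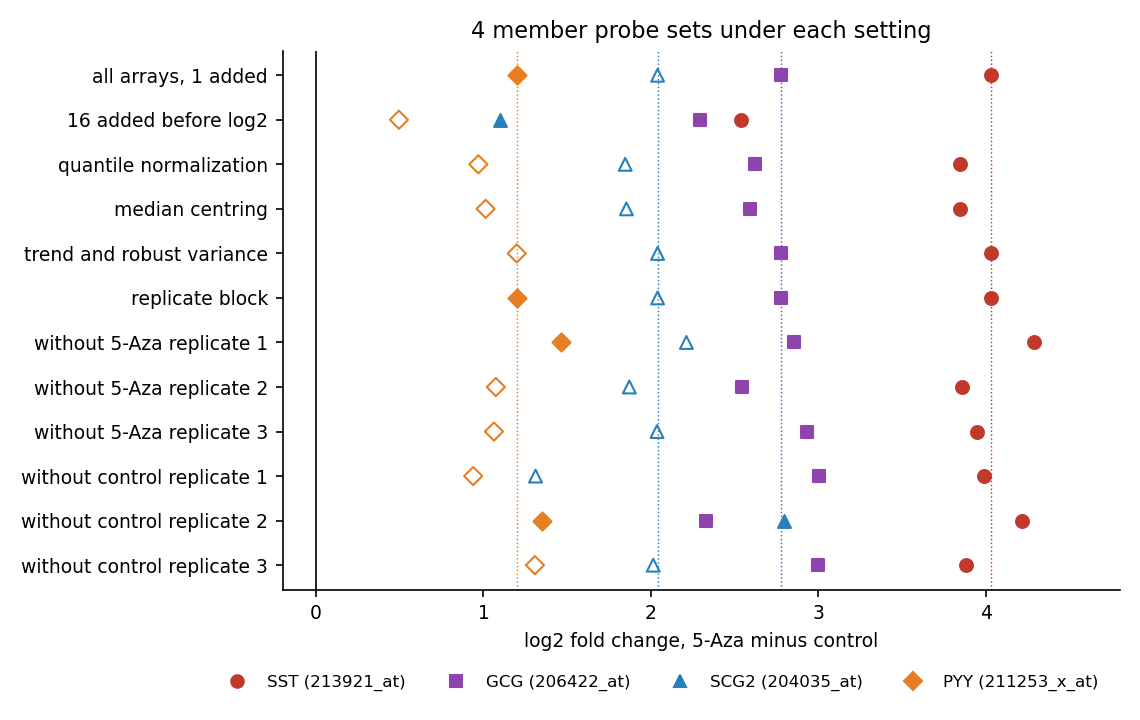
Log2 fold change (5-Aza minus control) of SST, GCG, SCG2 and PYY 211253_x_at over all arrays and under each alternative drawn, with filled symbols for an unadjusted p under 0.025. SST and GCG were filled in every row they appear in, and SST moved most with 16 added (2.54 against 4.03). The alternative that kept only probe sets above the median signal, in which SST, SCG2 and PYY had no value, is not drawn.

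The genes around these hormones were examined in 6 lists, with each gene represented by 1 probe set, and 88 genes were measured. UCHL1, TRPA1 and RXFP3 were the 3 that passed the threshold of 0.025 in limma with higher signals, and 0 passed with lower ones, where 3.01% of all 19775 genes were higher and 0.915% lower. After adjustment 0 of the 88 passed at 0.05. Every 5-Aza array lay above every control array in 11 of the 88 (9.92% of all genes) and below in 3 (6.94% of all). The log2 fold change was above 0 in 48 of the 88 (54.9% of all genes), and its median was 0.037, against 0.038 over all genes.

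Among 19 genes in the list of other gut hormones, which also holds the enzyme gene TPH1, REG4 and AGT, 0 passed. NMU, the gene of neuromedin U, which was named after its values were seen, came closest. It gave 90.8, 154.9 and 163.2 after 5-Aza and 40.7, 54.0 and 88.5 in control cells, with a log2 fold change of 1.17 (unadjusted p = 0.0257 in limma). The strongest signals were those of REG4, a secreted lectin of enteroendocrine and goblet cells (13659 to 15553 after 5-Aza and 9644 to 22075 in control cells, log2 fold change -0.16), and AGT, angiotensinogen (0.33). REG4 groups overlapped, and the spread lay in the control arrays, where replicate 2 was lowest.

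Among 15 other granule and neuroendocrine proteins, 1 was higher and 0 lower. UCHL1, a ubiquitin hydrolase of neurons and neuroendocrine cells, gave 73.9, 116.1 and 121.1 with its probe set 201387_s_at after 5-Aza and 8.6, 8.8 and 14.7 in control cells. These control values were under the TrpnX level and all 5-Aza values above it, so that the signal was at least 3.08-fold higher. The log2 fold change was 3.17 (SE 0.31, unadjusted p = 9.61e-05 and adjusted p = 0.146 in limma), and the other probe set of UCHL1 (1555834_at) had 1.57 with overlapping groups. The strongest signals of the list, SYT13 and ENO2, had log2 fold changes of 0.37 and -0.25 without passing the threshold.

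Prohormone processing is the work of convertases and of the enzymes that trim and modify the cut peptides. Of the 9 measured genes 0 passed in either direction. DPP4, the peptidase that inactivates the incretins, gave 4713 to 5619 after 5-Aza and 4274 to 6483 in control cells (log2 fold change -0.067), and PAM, which amidates peptide ends, gave 4842 to 5337 after 5-Aza and 5412 to 6472 in control cells (-0.17). The log2 fold changes of the 9 genes were between -0.28 and 0.54.

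Of 17 receptors of the member hormones and their relatives, RXFP3 was higher and 0 were lower. RXFP3 is best known as the receptor of relaxin-3, a relative of INSL5, while RXFP4, the receptor of INSL5, was not used here. RXFP3 gave 5.6, 5.2 and 7.1 after 5-Aza and 2.4, 2.2 and 2.8 in control cells, all under the TrpnX level, and the call was lost with 16 added (log2 fold change 0.25 against 1.00) and with trend and robust variance. NTSR1, the neurotensin receptor, had signals well above background in both groups (713 to 872 after 5-Aza and 657 to 1058 in control cells, log2 fold change 0.028). GIPR, the GIP receptor, gave 48.6, 291.9 and 216.7 after 5-Aza and 200.3, 176.6 and 229.4 in control cells (-0.46, overlapping). Its other probe set (208105_at), chosen after its values were seen, gave 4.7, 11.2 and 54.0 after 5-Aza and 57.9, 68.9 and 103.6 in control cells (log2 fold change -2.27, unadjusted p = 0.0436 in limma). Of the 17 receptors, 4 (GLP2R, SSTR4, RXFP3 and NTSR2) were at or under the TrpnX level on all 6 arrays.

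Of 18 transcription factors of the enteroendocrine lineage, 0 passed in either direction. FOXA2 and ONECUT2, which had the strongest signals, had log2 fold changes of -0.17 and -0.006. The probe sets of INSM1, a zinc finger factor of endocrine cells, disagreed. The probe set 231558_at, which stood for the gene, had a log2 fold change of -1.02 with overlapping groups, while 206502_s_at, which was chosen after its values were seen and which the study also picked from these arrays, gave 50.2, 44.6 and 44.7 after 5-Aza and 2.3, 2.7 and 32.8 in control cells (2.67, unadjusted p = 0.0349 in limma). All of these control values were under the TrpnX level and all 5-Aza values above it, so that the signal was at least 1.43-fold higher. Of 10 nutrient sensors, TRPA1, an ion channel of enterochromaffin cells, was higher and 0 were lower. It gave 49.6, 47.0 and 17.9 with its probe set 208349_at after 5-Aza and 1.6, 7.8 and 6.9 in control cells (log2 fold change 2.66, unadjusted p = 0.00757 in limma), and 2 of the 3 5-Aza values but 0 of the control values were above the TrpnX level. Against that level the fold was 1.08, which is not a lower bound, as the value of 5-Aza replicate 3 lay under it too. The call was lost without 5-Aza replicate 1 (2.41) and without 5-Aza replicate 2 (2.45). The other probe set of TRPA1 (217590_s_at) was under the TrpnX level on all arrays, with -0.31. FFAR4, a receptor of long-chain fatty acids, and SLC5A1, a glucose carrier, had the strongest signals of this list and log2 fold changes of -0.18 and -0.062.

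**Figure D4:**
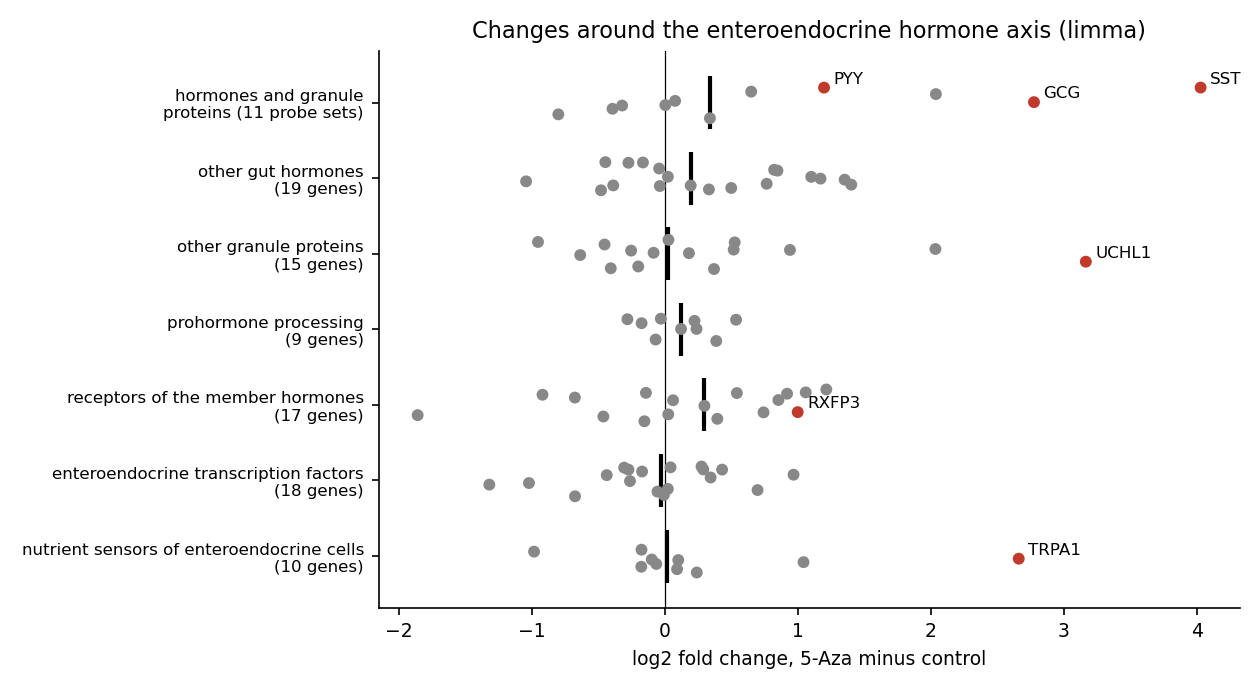
Log2 fold change (5-Aza minus control) of the 11 member probe sets and of the genes in 6 lists around them, with 3 arrays in each group. Points are single probe sets or genes, black bars are medians, and red points, which are named, had an unadjusted p under 0.025 in limma. The 6 red points all lie above 0, and the medians lie between -0.03 and 0.34.

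Several of these hormones and granule proteins are also made by pancreatic islet cells and neurons, so the markers of these cells were examined. Of 6 islet markers 0 passed an unadjusted p under 0.025, INS and IAPP were at or under the TrpnX level on all arrays, and the summed signal of the list was 110.7 to 183.5 after 5-Aza and 113.6 to 199.6 in control cells. Of 10 neuronal markers 0 passed, 2 (RBFOX3 and NEFM) were at or under the TrpnX level on all arrays, and the summed signal was 8371 to 11147.5 after 5-Aza and 5796 to 7873 in control cells. Most of that sum came from TUBB3 202154_x_at (7954 to 10686 after 5-Aza and 5401 to 7600 in control cells, log2 fold change 0.60). The other probe set of TUBB3, 213476_x_at, had 0.19 with overlapping groups. Both carry the suffix _x_at and can also match other transcripts. The count of neuronal genes called higher was 1 with quantile normalization, with trend and robust variance, without probe sets under the median signal, with a gene's probe sets averaged, and without control replicate 2. The other probe sets of SNAP25 (log2 fold changes of 0.02 and -0.26) and PDX1 (0.29 and 0.77) overlapped between the groups. Some other probe sets of these markers, chosen after their values were seen, were separated between the groups. MAP2, a protein of neuronal microtubules, gave 78.1, 48.8 and 57.0 with 210015_s_at after 5-Aza and 4.2, 30.2 and 10.2 in control cells (log2 fold change 2.32, unadjusted p = 0.0168 in limma, at least 1.84-fold), while its brighter probe set 225540_at overlapped (0.42). SLC30A8, the zinc carrier of insulin granules, gave 48.9, 56.5 and 48.3 with 239983_at after 5-Aza and 7.1, 29.2 and 29.0 in control cells (log2 fold change 1.42, unadjusted p = 0.0493 in limma, at least 1.57-fold), while 1552985_at overlapped (-0.01). In both, all control values were under the TrpnX level and all 5-Aza values above it.

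Of 6 goblet cell markers 1 was lower, SPDEF (220192_x_at, log2 fold change -0.60, unadjusted p = 0.0137 in limma). In that list 4 of the 6 had log2 fold changes above 0, with a median of 0.37. Other SPDEF probe sets were lower without overlap (214404_x_at -0.58, 213441_x_at -0.35) or overlapped (214403_x_at -0.94, 213442_x_at 0.11). All SPDEF probe sets carry the suffix _x_at and can also match other transcripts. Of 9 markers of colon epithelium 1 was higher, CEACAM5 (0.96). Of 6 markers of blood and stroma 1 was higher, VWF (1.95), with 2 of 3 5-Aza values and 0 of 3 control values above the TrpnX level. Against that level its fold was 1.53, which is not a lower bound. The SPDEF call was lost with the replicate block (limma's unadjusted p = 0.0533) and without 5-Aza replicate 1, 2 or 3 or control replicate 2 or 3 (log2 fold changes from -0.65 to -0.54). The list of blood and stroma had 0 genes higher after quantile normalization, after median centring, without probe sets under the median signal, and without 5-Aza replicate 2, 5-Aza replicate 3 or control replicate 3, and that of colon epithelium had 0 with a gene's probe sets averaged and 2 with trend and robust variance. No marker was listed at 0. The part of these markers in the values of the hormones was not tested. On arrays of whole cultures, more cells with hormone transcripts and more transcript per cell cannot be told apart.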

How the data were processed

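Arrays of HT-29 cells treated with 5-Aza (3) and of control cells (3) were grouped by the source name in the labels. The deposited values are linear intensity values, 1 signal for each of 54675 probe sets and array, made by the authors with the affy package per the labels (its version, the background correction and the summary method are not given in the sources used here). The mean without the lowest and highest ends was 499.9 on every array, so the arrays had been scaled. Gene symbols came from the platform annotation (41097 probe sets with 1 symbol, 1801 with several, 11777 with none), updated by gene ID.

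After removal of 62 control probe sets, log2(signal + 1) was compared with limma 3.58.1 in R 4.3.3 with the group as the only term, with Benjamini-Hochberg adjustment over all of them. limma stood in for the SAM method of the study, which draws its null from other splits of the arrays and was not run, and the study's level of p under 0.025 was applied to the unadjusted p without its condition on rank. The number of arrays limits the precision. The scripts were tested on simulated data. The members and gene lists were chosen with earlier results of these data known. Each list gene was represented by its probe set of highest mean signal, with _x_at only where no other existed, and list genes without one were not used here. Genes were named in the text when they passed an unadjusted p under 0.025 without overlap of the groups, or when they had the strongest signals of their list. Lists were described by counts and medians, without a test. Where a group lay at or under the highest TrpnX signal of each array, a fold was taken against that level. It was given as a lower bound only where all values of the other group lay above the level. Same-numbered arrays of the groups did not deviate together from their group means (correlations of -0.012, 0.002 and 0.010), and no source pairs them. Alternatives were 16 added in place of 1, quantile normalization, median centring, trend and robust variance, only probe sets above the median signal, the replicate block, leaving out each array, a gene's probe sets averaged, and 1 TrpnX level for all arrays.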

Additional observations from a re-analysis of the deposited data

How the results depend on the processing

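The log2 fold changes of SST and GCG kept their direction and passed an unadjusted p under 0.025 in limma under every alternative that gave a value. When probe sets under the median signal were dropped, GCG was the one member left, so the count of members called higher was 1 in place of 3, and 9 probe sets in all were higher at an adjusted p under 0.05 in place of 0. With trend and robust variance 22 were higher and 1 lower at that threshold, none of them a member (adjusted p = 0.0592 for GCG and 0.0708 for SST). At an unadjusted p under 0.025, the 1621 probe sets called higher were 925 after median centring, and the 575 called lower were 1447 after median centring, 909 after quantile normalization and 909 with trend and robust variance. The median over all probe sets was then -0.12 with median centring and -0.0075 with quantile normalization, against 0.062. NTS then had -0.18 and -0.19, and CHGA -0.11 and -0.13. With the replicate block, which rests on numbers that no source pairs, 3 members were higher as before, and of the list genes 5 were higher in place of 3 and 1 lower in place of 0 (5 higher also with trend and robust variance). With the highest TrpnX signal of all arrays as background, 2 member probe sets lay above it on all 5-Aza arrays in place of 4, and 0 on all control arrays in place of 1. Without 1 array the probe sets called higher were 1258 to 1871 and those called lower 565 to 714, members called higher were 2 to 4, and list genes 3 to 7 higher (7 without control replicate 3) and 0 to 4 lower (4 without control replicate 2). The log2 fold changes that turned sign without 1 array ranged from -1.22 to 0.59 for INSL5, -0.58 to 0.57 for NTS, -0.0091 to 1.28 for CCK, -0.48 to 0.0001 for GIP, -0.16 to 0.33 for CHGA and -1.02 to 1.39 for CHGB. The cause of these shifts was not tested, other than fewer probe sets or arrays where an alternative leaves them out. Signals near or under the TrpnX level limit what can be said of every member, in SST and GCG on control arrays.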
